A study of Drosophila melanogaster with 8 samples.

Results

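Many activity-regulated and CREB family transcription factors couple the firing of a neuron to its gene expression. Calcium entry and cyclic AMP activate kinases that phosphorylate CREB proteins and release CREB coactivators into the nucleus, and MAP kinase cascades act on the Fos and Jun proteins that form the dimeric factor AP-1. Genes such as Hr38 and sr are transcribed soon after stimulation and serve as markers of recently active neurons in insect brains. In Dh44 neurons, which make diuretic hormone 44 and were studied here as part of an internal sensor of dietary amino acids, these genes were followed across libraries by name: Hr38, sr, kay, Jra, CrebA, CrebB, CRTC and Mef2. Of these 8 genes, 6 had a row among the 11773 gene identifiers of the series. CrebB (FBgn0265784, X:18366357-18377864, plus strand), the fly CREB, and CRTC (FBgn0036746, 3L:17659818-17669234, minus strand), a coactivator of CREB, were not analysed here.

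All samples belong to 1 group of 8 libraries of GFP-marked neurons taken from the brain of Drosophila melanogaster with the genotype DH44-GAL4;UAS-mCD8gfp, in which the Dh44 driver turns on a membrane-bound green fluorescent protein. Flies were 5 days old and had been kept on normal food, and all of them carried the same driver and reporter. The descriptions call the material both individual and pooled cells, no animal is named, and there is no second condition, so the values describe these libraries and no test was made. Expression is given as FPKM, mapped fragments divided by exon length and by the library's total, which allows levels of different genes to be compared per length.

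Whole-library values set the frame for the 6 genes. Summed FPKM was 812029 to 935440 per library, read depth is unknown, and 2518 (library 1) to 5256 (library 4) genes reached 1 FPKM. Library 8, with 3798, and library 3, with 4094, followed library 1 from below. Dh44 itself was at 26309 to 99818 FPKM, and all 7 measured neuronal markers were detected, meaning at 1 FPKM or more in at least 4 libraries. The neuronal marker elav nevertheless had 105.1 FPKM in library 4 and as little as 0.821 FPKM in library 8. Summed neuronal markers were lowest in libraries 8 (426 FPKM) and 1 (914 FPKM), and summed fat body markers were highest there, at 68478 and 56982 FPKM. Markers of other cells were also detected, 5 of 7 for fat body, 7 of 8 for photoreceptors, 3 of 5 for hemocytes, 3 of 6 for glia and 7 of 13 for muscle. Their part in the results below was not tested. With so little material, fewer cells and less RNA per cell cannot be told apart. Tbp, a general transcription factor gene, had no value above 0 in 5 of the libraries. An exact 0 is therefore given only as a gene being listed at 0, which does not show that its RNA was missing.

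All 6 genes were detected, against 41.2% of all genes by the same rule. CrebA, a bZIP factor that raises the expression of secretory pathway genes in fly gland cells, was the highest at a median of 118 FPKM. It was followed by sr (61.2 FPKM), Hr38 (47.6 FPKM), Jra (43.9 FPKM), kay (15.3 FPKM) and Mef2 (11.1 FPKM). CrebA was the only member at 1 FPKM or more in all 8 libraries, which 11.0% of all genes reached. The other 5 were each listed at 0 in 1 or 2 libraries, as were 87.0% of all genes in at least 1 library.

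**Figure D1:**
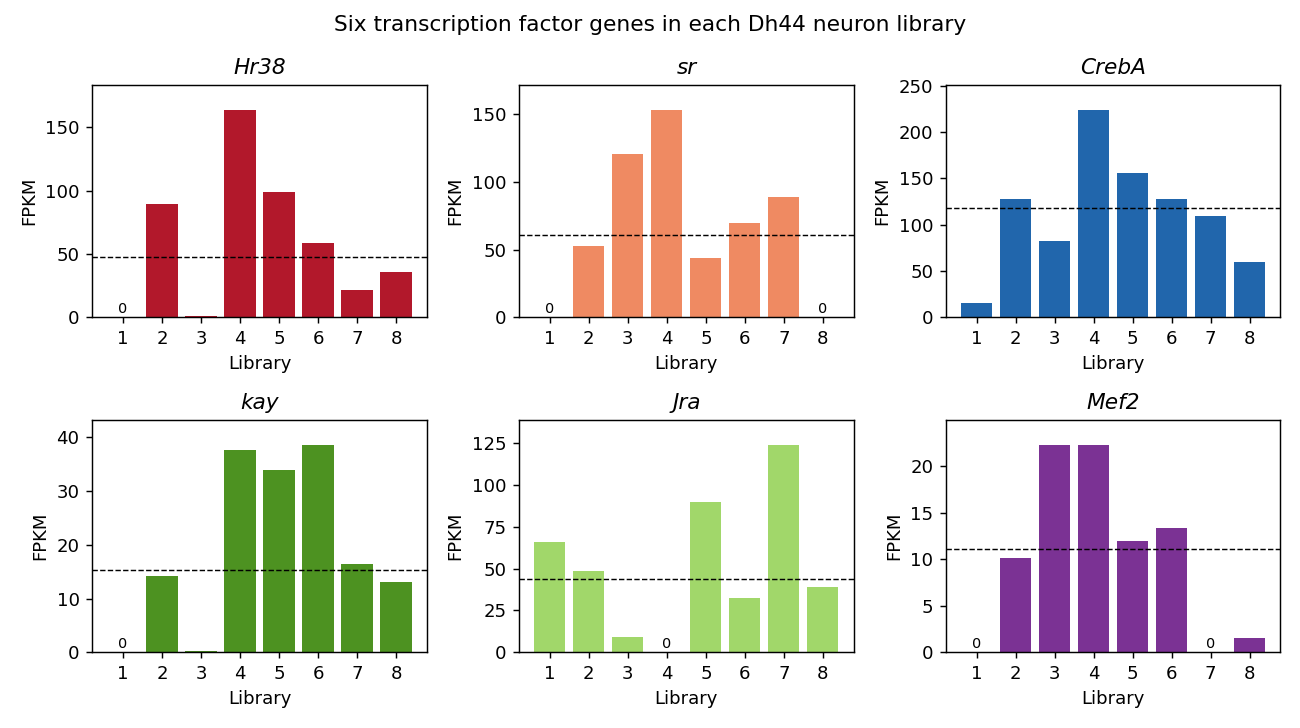
FPKM (vertical axis, from 0, scaled for each gene) of the 6 members in libraries 1 to 8; the dashed line is the median over the 8 libraries and a printed 0 marks a library listed at 0. CrebA is above 0 in every library, with its lowest value of 15.8 FPKM in library 1, and each other gene is listed at 0 in 1 or 2 libraries: library 1 for Hr38 and kay, 1 and 8 for sr, 4 for Jra, and 1 and 7 for Mef2.

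Hr38 (FBgn0014859, 2L:20683462-20714588, minus strand) encodes the fly orthologue of mammalian orphan nuclear receptors of the Nur77 type and is widely used as a marker of neuronal activity in the fly brain. In libraries 1 to 8 it was at 0, 89.2, 1.43, 164, 99.2, 59.1, 21.6 and 36.1 FPKM. Library 4 was the highest, and libraries 1 and 3 lay far below the others. Among genes listed above 0, Hr38 stood at percentile 88.0 of library 4 but at percentile 14.1 of library 3. The spread above 0 was therefore 114-fold, and the SD of log2(FPKM + 1) was 2.66, against a median of 2.03 over the 3086 genes with a mean of 3 or more on that scale and exons of 250 bp or more. Of its 7704 bp of exons, 168 bp overlap CG2617 on the opposite strand, whose reads cannot be separated without strand. CG2617 had 0, 19.2, 0, 5.49, 34.8, 24.1, 0 and 0 FPKM in libraries 1 to 8. It was thus at 0 in libraries 1 and 3, where Hr38 was lowest, but also in libraries 7 and 8, and its part in the values of Hr38 was not tested.

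sr (FBgn0003499, 3R:18090803-18135583, plus strand), or stripe, encodes a zinc finger factor of the Egr family that is known both for tendon cell development and as an activity-regulated gene in insect neurons. Its values in libraries 1 to 8 were 0, 52.8, 120.4, 153, 43.8, 69.7, 89.0 and 0 FPKM. It was either listed at 0, in libraries 1 and 8, or at 43.8 FPKM or more, so its spread above 0 was only 3.50-fold. The SD of log2(FPKM + 1) was 2.99 over all 8 libraries, the largest of the 6 members, and 0.69 without libraries 1 and 8. In library 3, where Hr38 was at 1.43 FPKM, sr stood at percentile 83.2 of the genes above 0. In library 8 the converse held, with Hr38 above 30 FPKM and sr listed at 0. No exons of another gene overlap those of sr.

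The AP-1 partners differed in level and in the libraries with their highest and lowest values. kay (FBgn0001297, 3R:29765995-29794113, plus strand), or kayak, is the fly Fos gene, and its values in libraries 1 to 8 were 0, 14.2, 0.281, 37.6, 34.0, 38.7, 16.4 and 13.2 FPKM. Libraries 4, 5 and 6 formed a close upper group, and libraries 1 and 3 were the only ones below 13 FPKM. Jra (FBgn0001291, 2R:10096480-10098556, plus strand) is the fly Jun gene, and its values in the same order were 65.7, 48.8, 9.28, 0, 90.1, 32.5, 124 and 39.0 FPKM. Jra was the highest member in libraries 1 and 7, and it was the one member listed at 0 in library 4, where the most genes were detected and where Hr38, sr, CrebA and Mef2 each had their maximum. Of Jra's 1642 bp of exons, 39 bp overlap RpLP0-like on the opposite strand. RpLP0-like was at 44.2 FPKM in library 4, the library with Jra listed at 0, and was itself listed at 0 in libraries 1 and 8; the part of its reads in the values of Jra was not tested.

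Both AP-1 genes reached 1 FPKM in 5 libraries, namely 2, 5, 6, 7 and 8. In these 5, the ratio of kay to Jra had a median of 0.338. It was lowest at 0.132 in library 7 and exceeded 1 in library 6 alone, at 1.19. In library 1 Jra was at 65.7 FPKM with kay listed at 0, and in library 4 kay was at 37.6 FPKM with Jra listed at 0. In library 3 both were near the bottom of their ranges. Over the 8 libraries the Pearson correlation of kay and Jra on the log2(FPKM + 1) scale was -0.10 (Spearman -0.17). It was 0.06 without library 1 and -0.46 without libraries 1 and 3, so its sign depended on the libraries used.

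CrebA (FBgn0004396, 3L:15535395-15553214, plus strand) had values of 15.8, 128, 82.8, 224, 156, 128, 109 and 59.8 FPKM in libraries 1 to 8. Libraries 1 and 8 were the lowest, and the other 6 libraries lay within 82.8 to 224 FPKM. Its SD of log2(FPKM + 1) was 1.15, the smallest of the members and at percentile 22.0 of the 3086 genes it was ranked with. The SD of CrebA was 0.48 when libraries 1 and 8 were left out. By rank within a library, which does not depend on scaling, it stood between percentile 77.6 and 90.5 of the genes above 0 in libraries 2 to 7, at percentile 73.4 in library 8 and at percentile 34.6 in library 1. By median it ranked 708 among all genes.

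Mef2 (FBgn0011656, 2R:9913496-9958858, minus strand) encodes a MADS-box factor that drives muscle differentiation and is also known from fly neurons, among them clock neurons and mushroom body cells. It had values of 0, 10.2, 22.2, 22.3, 12.0, 13.4, 0 and 1.54 FPKM in libraries 1 to 8. Libraries 3 and 4 were nearly equal at the top, and libraries 1, 7 and 8 lay below the rest. Muscle markers were present at low levels, with 7 of 13 detected and sums of 43.9 FPKM in library 1 to 537 FPKM in library 8. In library 8, with the highest muscle sum, Mef2 was at 1.54 FPKM. In libraries 3 and 4, where Mef2 was highest, the muscle sums were 311 and 353 FPKM. Mhc, the myosin heavy chain gene, had 8.57 FPKM in library 3 and was listed at 0 in library 4. The muscle sum of library 4 was led by Mlp60A and Tm1, at 149 and 136 FPKM. Each of the other muscle markers was at 33.9 FPKM or less there. The part of muscle RNA in the values of Mef2 was not tested.

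**Figure D2:**
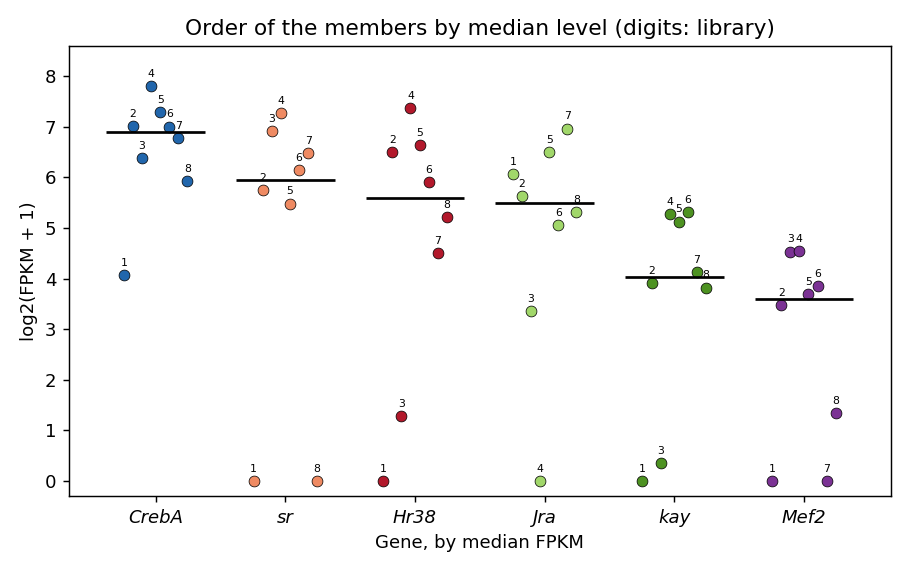
log2(FPKM + 1) of each member (vertical axis) by gene in the order of median FPKM; each point is a library, marked with its number, and the bar is the median. The columns of neighbouring genes overlap; library 1 is at the bottom of every column except that of Jra, where library 4 is.

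Only CrebA was set apart from other members in every library. Among the 15 pairs of members, 1 gene was higher than the other in every library for 3 pairs, in which CrebA exceeded Hr38, kay and Mef2. No neighbours in the order were separated in this way. CrebA exceeded sr in 7 libraries, with library 3 as the exception. sr was above Hr38 in 3 libraries and below it in 4, and both were listed at 0 in library 1. Hr38 and Jra were each the higher one in 4 libraries. Jra exceeded kay in 6 libraries, and kay exceeded Mef2 in 6. There were 6 pairs with the same order throughout when libraries 1 and 8 were left out.

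The fewest members were detected in the library with the fewest genes. All 6 reached 1 FPKM in libraries 2, 5 and 6, 5 of them did so in libraries 3, 4, 7 and 8, and 2 did so in library 1. For comparison, 2614 genes had a median between 10 and 150 FPKM, a range set after the members' medians were known. Of these, 50.5% reached 1 FPKM in library 1, 70.4% in library 8 and 82.0% in library 3, against 90.3% to 95.6% in the other 5 libraries. In library 1, where Hr38, sr, kay and Mef2 were all listed at 0, so were 47.7% of the genes in that range and 77.2% of all genes.

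**Figure D3:**
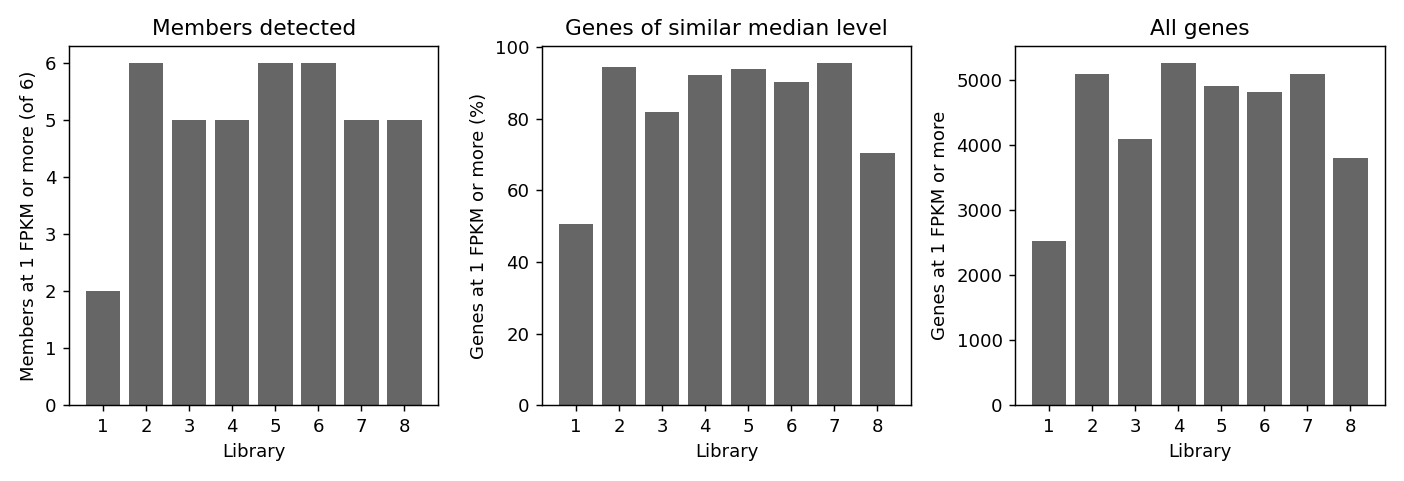
For libraries 1 to 8, the number of the 6 members at 1 FPKM or more (left), the percent of the 2614 genes with a median of 10 to 150 FPKM at that level (middle), and the number of all genes at that level (right). Library 1 is lowest in each panel, with 2 members, 50.5% and 2518 genes.

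The libraries in which a member was listed at 0 were common for some members and rare for others. The pattern of Hr38 and kay, at 0 in library 1 alone, was shared by 21.9% of the 2614 genes of similar level, and that of sr, at 0 in libraries 1 and 8, by 8.45%. Jra, listed at 0 in library 4 alone, shared that pattern with 28 genes counting itself, or 1.07%. Mef2, listed at 0 in libraries 1 and 7, shared it with 10 genes counting itself, or 0.383%.

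Which members varied together depended on the libraries used. Hr38 and kay had the highest Pearson correlation of log2(FPKM + 1), 0.96 over the 8 libraries (Spearman 0.76), and 0.92 without library 1. It fell to 0.59 without libraries 1 and 3, which are low for both genes, so much of it rests on those libraries. With the same libraries left out, Hr38 correlated at 0.94 with Mef2, against 0.44 over all 8 (Spearman 0.55). The correlation of Hr38 and Mef2 was 0.07 without library 1, and also 0.07 without libraries 1 and 8. CrebA correlated at 0.84 with Hr38 (Spearman 0.93) and at 0.79 with kay (Spearman 0.79). Without libraries 1 and 3 those values were 0.76 and 0.74. Its correlation with sr was 0.82 (Spearman 0.51), and 0.06 once libraries 1 and 8, where sr was listed at 0, were left out. Hr38 and sr, the pair best known as activity markers, correlated at 0.43 (Spearman 0.28), and at -0.06 without library 1. Their correlation was 0.39 without libraries 1 and 3, and -0.33 without libraries 1 and 8. Jra correlated negatively with each of the other 5, from -0.62 with Mef2 (Spearman -0.81) to -0.10 with kay. These values also depended on the libraries used. Jra's correlation with CrebA was -0.39, but 0.05 without libraries 3 and 4, and that with kay was 0.06 without library 1. With Hr38 it was -0.21, -0.08 without library 1 and -0.67 without libraries 1 and 3. With sr it was -0.37, and -0.79 without libraries 1 and 8. With Mef2 it was -0.45 without libraries 3 and 4. The number of genes detected in a library moved with several members, and its part in these correlations was not tested. The number of genes at 1 FPKM correlated at 0.97 with CrebA, at 0.80 to 0.83 with Hr38, sr and kay, at 0.52 with Mef2 and at -0.23 with Jra. In the 6 libraries other than 1 and 8 these were 0.76 for CrebA, 0.88 for Hr38, 0.84 for kay, -0.15 for sr, -0.34 for Mef2 and -0.01 for Jra. All are descriptions of 8 libraries, among 15 pairs of members and 6 relations to breadth.

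**Figure D4:**
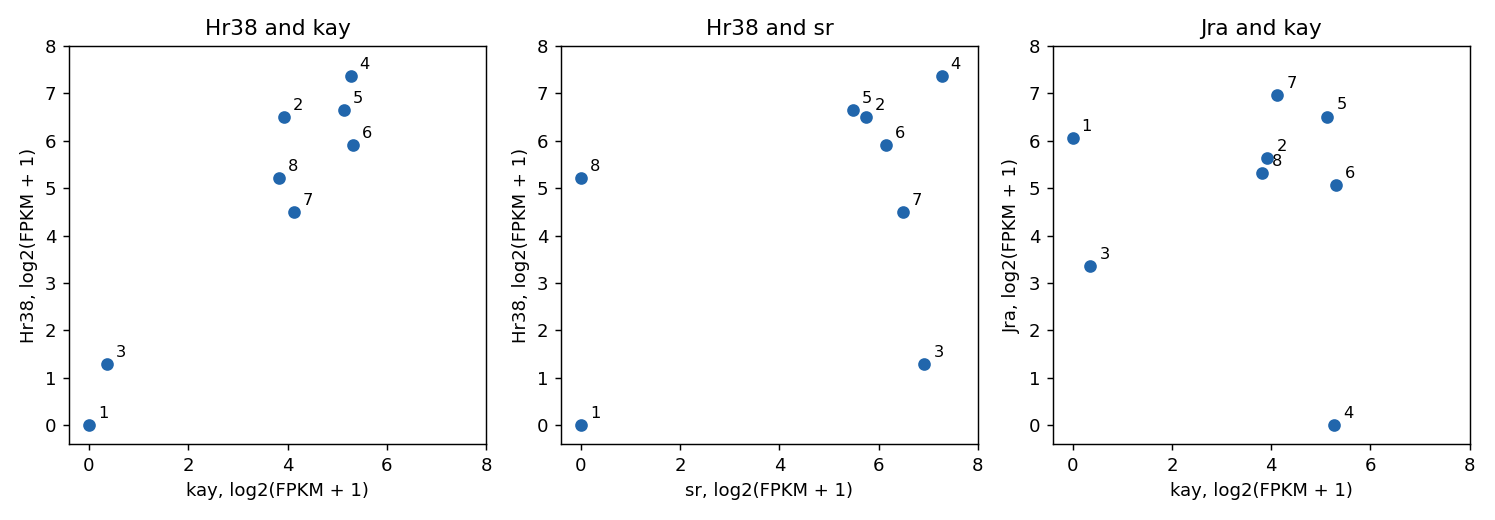
Each panel sets 2 members against each other on the log2(FPKM + 1) scale, with a numbered point for each of the 8 libraries: Hr38 against kay (left), Hr38 against sr (middle) and Jra against kay (right). Hr38 and kay are both low in libraries 1 and 3, Hr38 and sr part in libraries 3 and 8, and Jra and kay part in libraries 1 and 4.

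For each member, the genes with the most similar pattern were sought among about 3085 genes by Pearson correlation over the 8 libraries. For CrebA they were Rab14 (0.99), which encodes a small GTPase of vesicle traffic, Pits (0.98) and CG9231 (0.98). All 3 were lowest in libraries 1 and 8, as CrebA was, and without these libraries their correlations with CrebA were 0.95, 0.87 and 0.88. For kay they were the zinc transporter gene ZnT63C (0.99), Mob3 (0.99) and CG4294 (0.98). All 3 were listed at 0 in libraries 1 and 3, the libraries where kay was lowest. For Hr38 they were CG10470 (0.98), the mitochondrial ribosomal protein gene mRpL21 (0.97) and CG11050 (0.97). These were listed at 0 in library 1 and were at 2.32 FPKM or less in library 3, the libraries where Hr38 was lowest. Those of sr were bbc (0.996), CG17193 (0.99) and CG9395 (0.99), which like sr were at or near 0 in libraries 1 and 8. In the other 6 libraries their correlations with sr were 0.90, 0.86 and 0.90. Those of Jra included lncRNA:CR33942 (0.95) and CG10214 (0.93), and those of Mef2 were CG42382 (0.97), CG14247 (0.95) and the sex determination gene tra (0.94). The 3 genes of Mef2 were at or near 0 in libraries 1, 7 and 8, the libraries where Mef2 was lowest. No member was among the 3 leading genes of another.

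Other activity-regulated genes were detected in most libraries. Of 9 measured genes of that list, 8 were detected and 4 reached 1 FPKM in all 8 libraries. Of all genes, 41.2% and 11.0% did so. The list had a median of medians of 66.5 FPKM, against 0 over all genes and 19.7 FPKM over the 4846 detected genes. Arc1, which encodes a capsid-forming protein related to retrotransposon Gag, led with a median of 174 FPKM (89.7 to 329). It was highest in library 1, the library in which Hr38, sr and kay were listed at 0. CG14024 (169 FPKM), the zinc finger gene cbt (68.3 FPKM), CG13868 (68.2 FPKM) and CG14186 (66.5 FPKM) followed, with cbt and CG14186 also listed at 0 in library 1. Library 4 held the maximum of cbt, at 262 FPKM, as it did for Hr38 and sr. No other measured gene of the list had its maximum in that library, which was also the one with the most genes detected. The phosphatase genes puc and Mkp3, which restrain JNK and ERK kinases, had medians of 27.0 and 34.0 FPKM.

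The median correlation of its 8 detected genes was 0.73 with Mef2, 0.60 with sr, 0.59 with CrebA, 0.36 with Hr38, 0.25 with kay and -0.50 with Jra. Over all detected genes the medians were 0.22 for Mef2, 0.40 for sr, 0.42 for CrebA, 0.31 for Hr38, 0.28 for kay and -0.11 for Jra. With libraries 1 and 8 left out, the list's median was 0.78 with Mef2, 0.30 with sr, 0.18 with CrebA, -0.11 with Hr38, -0.23 with kay and -0.62 with Jra. In the same order, the medians over all detected genes were then -0.12, -0.06, 0.14, 0.15, 0.14 and -0.02. All 8 genes correlated positively with Mef2, as did 69.1% of all detected genes, and none did so with Jra, against 38.2% of all detected genes.

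**Figure D5:**
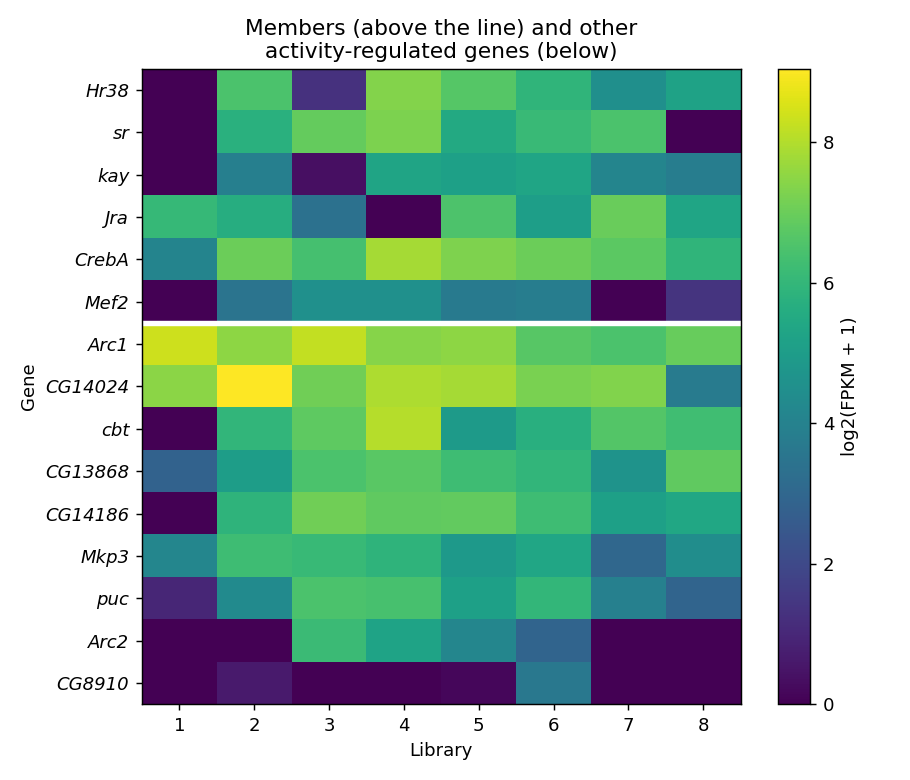
log2(FPKM + 1), shown as colour, of the 6 members (above the white line) and of the 9 other activity-regulated genes measured (below it, by median) in libraries 1 to 8. Arc1 and CG14024 remain high in library 1, where Hr38, sr, kay, Mef2, cbt and CG14186 are listed at 0, and CG8910 reaches 1 FPKM in library 6 alone.

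Genes that signal to CREB and CRTC were mostly present, although CrebB and CRTC themselves were not analysed. Of 20 measured, 17 were detected and 9 were at 1 FPKM or more in all 8 libraries, against 41.2% and 11.0% of all genes. Cam, the calcium sensor calmodulin, led at a median of 1316 FPKM (475 to 2192). CanB, the regulatory subunit of the phosphatase calcineurin, had a median of 526.3 FPKM, and the regulatory subunit gene Pka-R1 of protein kinase A 330 FPKM. The calcium-dependent kinase genes CaMKII and CaMKI had medians of 189 and 123 FPKM. The catalytic subunit gene Pka-C1 was at a median of 57.2 FPKM, and nej, the fly CREB-binding protein, at 7.01 FPKM. The adenylyl cyclase gene rut, known from learning, had a median of 0.494 FPKM, whereas Ac3 had 27.5 FPKM.

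Of 14 measured genes of MAP kinase signalling to AP-1, which include kinases, a GTPase and phosphatases, 12 were detected. The same rule was met by 41.2% of all genes. The Jun kinase gene bsk led with a median of 181 FPKM (17.96 to 352), followed by the ERK kinase gene Dsor1 (63.7 FPKM), Ras85D (62.8 FPKM), the ERK gene rl (44.4 FPKM) and Mkp3. bsk was above 0 in every library, whereas Ras85D, Dsor1 and rl were listed at 0 in library 1, as kay was. In all 8 libraries, 2 of the 14 (bsk and Mkp3) reached 1 FPKM, against 11.0% of all genes. The 12 detected genes had a median correlation of 0.49 with kay and -0.15 with Jra, against 0.28 and -0.11 over all detected genes. With libraries 1 and 8 left out the list's medians were 0.38 and -0.02, against 0.14 and -0.02. A positive median was not particular to kay. Over all 8 libraries it was 0.57 with CrebA, 0.52 with Hr38, 0.50 with sr and 0.46 with Mef2. Over all detected genes those medians were 0.42, 0.31, 0.40 and 0.22.

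Several other bZIP factors exceeded the AP-1 and CREB family members. Xbp1, a factor of the unfolded protein response, had a median of 439 FPKM, followed by Atf-2 (385 FPKM), crc (371 FPKM), maf-S (168 FPKM) and cnc (62.4 FPKM). Xbp1, Atf-2 and crc were each above CrebA's median of 118 FPKM in every library. In all, 8 of 11 measured were detected, and 7 of these were at 1 FPKM or more in all 8 libraries. Of all genes, 41.2% and 11.0% did so.

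Of all genes, 41.2% were detected, and so were all 24 measured genes of the secretory pathway, the class that CrebA activates in fly glands. Their median of medians was 133 FPKM, and they were led by SsRbeta (486 FPKM), the signal peptidase genes Spase12 (422 FPKM) and Spase22-23 (411 FPKM), the coatomer gene zetaCOP (271 FPKM) and the cargo receptor gene bai (258 FPKM). Their median correlation with CrebA was 0.57, against 0.42 over all detected genes, and 17 of 24 were positive, against 75.4% of all detected genes. With libraries 1 and 8 left out the median was 0.32, against 0.14. The same list had a median correlation of 0.51 with kay and 0.49 with Hr38, against 0.28 and 0.31 over all detected genes. With libraries 1 and 8 left out, the list's median was 0.57 with each of them. Over all detected genes it was then 0.14 for kay and 0.15 for Hr38. Single genes of the list ranged widely, from 0.92 for SrpRalpha, a subunit of the receptor of the signal recognition particle, to -0.44 for Spase22-23.

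A list drawn up around cofactors of Mef2 and of the related serum response factor had 7 measured genes, including bs, the gene of the latter factor. Of these 7 genes, 5 were detected, against 41.2% of all genes. The median of medians was 7.01 FPKM over the list, against 0 over all genes. The detected genes were sd (17.0 FPKM), tara (15.8 FPKM), the class IIa deacetylase gene HDAC4 (10.2 FPKM), nej (7.01 FPKM) and Mrtf (4.32 FPKM). The median of HDAC4, which represses Mef2, was close to that of Mef2 itself at 11.1 FPKM. HDAC4 was highest in library 7 at 26.8 FPKM, a library with Mef2 listed at 0. The serum response factor gene bs was listed at 0 in 5 libraries.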

How the data were processed

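The 8 libraries of Dh44 neurons were sequenced as complementary DNA. The authors deposited 1 FPKM value per gene and library. Per the labels' protocols, complementary DNA was made by a modified SMART-seq2 protocol, sheared and amplified. Low-quality reads, adaptors and primers were removed before mapping, and per the submitters' processing notes TopHat was used. Not given in the sources used here are its version, the genome build, the annotation, the FPKM program and the use of strand. Values above 0 reached down to 9.13e-317, so they are model estimates from which no read counts, intervals or floors were derived.

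Symbols were matched for 11646 of 11773 identifiers, and coordinates and exons come from Ensembl release 115 (BDGP6.54), which may differ from the authors' build. The members and lists were chosen with earlier results of these data known. Detection meant 1 FPKM or more in at least 4 of 8 libraries. Logarithms used a pseudocount of 1. Genes were compared with members where the mean log2(FPKM + 1) was 3 or more, the gene was detected and its exons spanned 250 bp or more. The genes named were the members, up to 5 detected genes of each list by median, and the 3 genes most similar to each member, of which 1 is not reported here; puc, Pka-C1, rut, Ac3, bs, CG8910, Mlp60A, Tm1 and SrpRalpha were named after their values were seen. Calculations used Python 3.11.15, numpy 2.4.6, pandas 2.3.3 and SciPy 1.17.1, and the correlation and outlier code was tested on simulated data. With a single group no p-value was computed. Alternatives were the scaling, the pseudocount, the detection rule and the libraries used. No sequences are shown.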

Additional observations from a re-analysis of the deposited data

Results flagged for a closer look

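Of 47 sets of 8 values examined, 5 had a highest or lowest library whose gap to the next, relative to the whole range, exceeded Dixon's 95% critical value of 0.526. Chance gives about 1 in 20 for normally distributed values, and 21.6% of all detected genes passed the same rule on FPKM, so a flag is common here. None of the 6 members was among them. cbt was at 262 FPKM in library 4, against a median of 60.4 FPKM in the other 7. CG14024 was at 528 FPKM in library 2, against 160 FPKM. sd was at 120.0 FPKM in library 3, against 13.5 FPKM. elav was at 105.1 FPKM in library 4, against 4.21 FPKM. The summed photoreceptor markers were at 7844 FPKM in library 8, against 1474 FPKM, and this value alone also stood apart on the log2(FPKM + 1) scale.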

How the results depend on the processing

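No paired analysis was possible because all libraries belong to 1 group. Leaving out each library in turn was chosen after seeing the data. The medians of the 6 members moved by less than the SD between libraries under every scaling tried, without libraries 1 and 8, and with any single library left out. The SDs of log2(FPKM + 1) were large, from 1.15 for CrebA to 2.99 for sr. This limit was therefore wide, and staying within it says little about stability. Without libraries 1 and 8 the medians of Hr38 and kay were 74.2 and 25.2 FPKM, more than 1.5 times the values over all 8. All 6 members were detected under each level (0.1 or 5 FPKM), each number of libraries (2 or 6) and each set of libraries tried. The number of pathway genes detected, 71 of 82, ranged from 63 (in at least 6 libraries) to 75 (in at least 2). Under the main rule, 41.2% of all genes were detected. The number of member pairs with 1 order throughout was 3 over all 8 libraries, 6 without libraries 1 and 8, 5 when 7 of 8 libraries sufficed, and 3 to 4 with 1 library left out. The lists of most similar genes were the least stable: of 18 genes, 10 stayed with a pseudocount of 0.1, 10 with a pseudocount of 10, 18 without the filter on mean level and 1 with Spearman correlation. The FPKM values hold no read depth, so a value listed at 0 sets no limit on expression.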

Other observations

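The adenylyl cyclase gene Ac76E ran against most members across the libraries. Its levels were 15.8 FPKM in library 1, 15.5 FPKM in library 8 and at most 2.80 FPKM in the other 6. Its correlation with CrebA over the 8 libraries was -0.85, with sr -0.87 and with Hr38 -0.65. It was chosen after its values were seen, and the summed fat body markers were also highest in libraries 1 and 8; their part in this was not tested.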
